A study of Mus musculus with 4 samples.

Results

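The genes described here encode 4 families of the splicing machinery and its RNA-binding partners, taken by symbol from the protein-coding genes of the mouse RefSeq table: the heterogeneous nuclear ribonucleoproteins (symbols starting Hnrnp, 21 genes), the SF3 complex (Sf3a and Sf3b, 9 genes), the spliceosomal small nuclear ribonucleoproteins (Snrp without Snrpn, 11 genes) and the SR proteins (Srsf with a number, 11 genes). They are 52 of 21887 protein-coding genes. Each was examined for peaks of Pcbp1 chromatin immunoprecipitation sequencing (ChIP-seq) whose summit lay within 1 kb of either annotated gene end, called end-proximal peaks below. Both cell states came from the mouse embryonic stem cell line E14 Tg2a. Primed epiblast-like cells (EpiLC) were made by seeding the naive cells on fibronectin in N2B27 medium with 12 ng/ml bFGF, 20 ng/ml Activin A and knockout serum replacement for 48 hours. Naive cells had been grown for 3 passages in serum-free N2B27 medium with LIF, the MEK inhibitor PD0325901 at 1 uM and the GSK3 inhibitor CHIR99021 at 3 uM. Each state had 1 Pcbp1 ChIP library and 1 input library, so no value below has a replicate error and no test between the states was possible.

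Splicing removes introns from pre-mRNA in the spliceosome, which is built from small nuclear ribonucleoprotein particles, each a small RNA with its proteins. The SF3 complex helps the U2 particle hold the branch point, SR proteins bind exonic sequence and favour splice-site use, and hnRNP proteins coat nascent transcripts and often oppose it. Pcbp1 is itself a C-rich RNA- and DNA-binding protein with KH domains and is counted among the hnRNP proteins, with Hnrnpk as a close relative.

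In EpiLC 3494 peaks were listed, at a median fold of 3.41 over background, and in Naive 12132, at a median fold of 4.43. The EpiLC library had the deeper coverage at its peaks, with a median of 45 stacked fragments at the summit (the pileup) against 24 in Naive. The lowest background that a fold was set against was 7.43 fragments for EpiLC and 4.004 for Naive. Of primed marker genes, 5 of 6 had an end-proximal peak in EpiLC and 0 in Naive, while 1 of 8 naive marker genes had one in EpiLC and 6 in Naive. Of fibroblast markers 1 of 5 had one in each list, and of neural markers 1 of 3. Over all protein-coding genes the shares were 5.61% in EpiLC and 19.3% in Naive. The marker lists were chosen with earlier results of these data known, so these counts are no independent check of the labels. Peaks do not measure expression.

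Promoters with a summit in the stretch just upstream of a transcript start are shown to place the signal in sequence. RefSeq promoter entries (build GRCm38.p6, 250 bases before to 50 after a transcript start) matched 46 of the 52 genes, with 60 entries. Snrpb, Sf3b4, Sf3b5, Hnrnpll, Snrpd1 and Hnrnpul2 had no entry. Hnrnpk, whose protein is a KH-domain relative of Pcbp1, was the single gene with a summit inside this window in both lists, 225 bases before the start in EpiLC and 224 in Naive. A further 4 genes had one in Naive. By entry, 1 of 60 held a summit in EpiLC (1.67%, against 1.43% of all entries). In Naive 5 of 60 did (8.33%, against 5.78%). Hnrnpr (115 bases before), Hnrnpl (106 bases before a start inside its gene record, at a separate peak outside the 1 kb limit) and Snrpd2 (33 bases before) are printed for comparison, chosen after their values were seen, and that of Snrpc lay 20 bases after the start. The 250 bases before the start are given 5′ to 3′ on the gene's strand, and capitals mark runs of at least 4 C or 4 G.
Hnrnpk, chr13:58402118-58402367, minus strand: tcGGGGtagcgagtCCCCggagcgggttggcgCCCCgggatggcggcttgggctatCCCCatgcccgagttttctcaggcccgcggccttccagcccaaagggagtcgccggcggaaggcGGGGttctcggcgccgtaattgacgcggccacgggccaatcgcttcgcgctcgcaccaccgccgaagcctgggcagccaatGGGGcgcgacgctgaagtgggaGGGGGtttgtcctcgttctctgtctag
Hnrnpr, chr4:136310692-136310941, plus strand: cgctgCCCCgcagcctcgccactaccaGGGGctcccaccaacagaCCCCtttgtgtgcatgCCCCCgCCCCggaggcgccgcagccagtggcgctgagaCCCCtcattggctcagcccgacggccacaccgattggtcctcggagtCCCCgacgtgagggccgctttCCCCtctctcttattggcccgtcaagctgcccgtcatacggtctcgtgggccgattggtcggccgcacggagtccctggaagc
Hnrnpl, chr7:28810640-28810889, plus strand: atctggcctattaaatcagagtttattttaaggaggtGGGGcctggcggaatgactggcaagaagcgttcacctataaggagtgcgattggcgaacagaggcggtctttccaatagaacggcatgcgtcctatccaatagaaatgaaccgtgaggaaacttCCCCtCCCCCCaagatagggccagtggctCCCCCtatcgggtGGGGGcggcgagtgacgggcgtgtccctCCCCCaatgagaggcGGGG
Snrpd2, chr7:19149588-19149837, plus strand: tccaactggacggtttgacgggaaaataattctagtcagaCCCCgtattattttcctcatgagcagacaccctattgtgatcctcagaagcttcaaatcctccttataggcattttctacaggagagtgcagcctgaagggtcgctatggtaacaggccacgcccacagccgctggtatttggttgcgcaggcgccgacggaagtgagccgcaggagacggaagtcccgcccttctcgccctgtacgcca
The Hnrnpk stretch held 3 C runs and 4 G runs at 69.2% GC. The Hnrnpr stretch held 7 C runs and 1 G run at 68.8% GC, Hnrnpl 4 and 3 at 56.4%, and Snrpd2 1 and 0 at 54%. Naive summits thus lay over stretches with many C runs, as at Hnrnpr, and over one with a single C run, as at Snrpd2.

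An end-proximal peak was found at 13 of the 52 genes in EpiLC (25%, against 5.61% of all protein-coding genes) and at 31 in Naive (59.6%, against 19.3%). Of these, 12 had one in both lists (23.1%, against 4.09% of all genes). Sf3b4 had one in EpiLC alone (1.92%, against 1.52%) and 19 in Naive alone (36.5%, against 15.2%). Of the 32 genes with a peak in either list, 31 were thus in Naive. Over all genes most were in Naive too, with 4230 in Naive and 333 in EpiLC alone. The other 20 had none in either list (38.5%, against 79.2%). All protein-coding genes, expressed or not, are the background here. The Naive list is the longer one: shortened to its 3494 peaks of lowest p-value, it marked 13 of the 52 genes (5.44% of all genes), as many as EpiLC, with 7 in both lists and 6 in each list alone. With 1 library per state, a difference between the cell states and one between the libraries cannot be told apart.

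The families differed in their counts between the full lists, in which 5.61% of all protein-coding genes had a peak in EpiLC and 19.3% in Naive. The Snrp genes had the highest share in Naive and the lowest in EpiLC, with 2 of 11 in EpiLC and 9 of 11 in Naive. The Srsf genes were closest to even, with 4 of 11 in EpiLC and 5 of 11 in Naive. Hnrnp genes had 5 of 21 in EpiLC and 12 of 21 in Naive, and SF3 genes 2 of 9 in EpiLC and 5 of 9 in Naive. With families of 9 to 21 genes and 1 library per state, these differences were not tested. In the shortened Naive list (5.44% of all genes) the counts were 6 Hnrnp, 1 SF3, 3 Snrp and 3 Srsf genes, against 5, 2, 2 and 4 in EpiLC. The wide Snrp contrast of the full lists was thus not seen at equal list length.

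**Figure D1:**
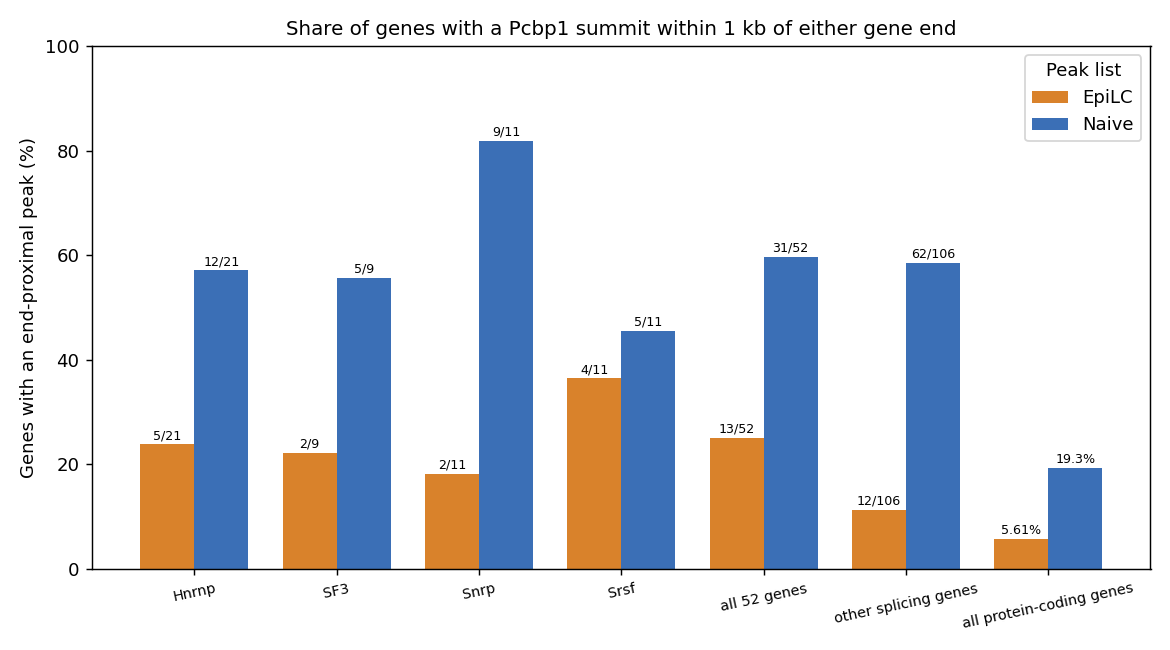
Percentage of genes with a Pcbp1 summit within 1 kb of either gene end (y axis), for each family, all 52 genes, 106 other splicing genes and all protein-coding genes, with EpiLC left and Naive right in each pair and counts above the bars. The Snrp pair is the most unequal (2 of 11 in EpiLC, 9 of 11 in Naive) and the Srsf pair the most even (4 of 11 in EpiLC, 5 of 11 in Naive).

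The fold enrichments were moderate. In EpiLC the strongest end-proximal peak of the 13 genes ranged from 2.21 to 3.99 with a median of 2.77, and 2 of 13 lay above the median of 3.34 over all genes with such a peak. In Naive the 31 genes ranged from 3.60 to 7.88 with a median of 4.94, and 22 lay above the median of 4.58 over all genes. The pileups behind these folds were 31 to 63 in EpiLC and 17 to 40 in Naive. Intervals given with folds below are 95% Poisson intervals of the pileup and cover counting error only.

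Among the small nuclear ribonucleoprotein genes, Snrpa, which encodes a protein of the U1 particle (chromosome 7, 27187006 to 27196271), had a fold of 2.72 (2.04 to 3.55) in EpiLC and 7.88 (5.68 to 10.7) in Naive, the highest of the 52 genes in Naive. The peak also lay at an end of BC024978. Snrpg, which encodes a protein of the Sm ring shared by several particles, had 3.17 (2.35 to 4.19) in EpiLC and 4.53 (2.97 to 6.65) in Naive. A second, weaker Naive peak at Snrpg (2.74) also lay at Fam136a. For Snrpa the intervals of the 2 states did not overlap, and for Snrpg they did.

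The other Snrp genes with a peak had one in Naive alone. Snrpd3 of the Sm ring had 6.16 (4.30 to 8.58) at a peak shared with Gucd1. Snrpc of the U1 particle had 5.48 (3.80 to 7.67), and Snrpb2 of the U2 particle had 4.74 (3.18 to 6.82). The Sm genes Snrpd2, Snrpb, Snrpe and Snrpd1 had folds between 4.38 at Snrpd2, at a peak shared with Qpctl, and 3.60 at Snrpd1. The Snrpd1 value was the lowest Naive value of the 52 genes. Of the 7 Sm ring genes in the list, 6 therefore had a Naive peak and 1, Snrpg, also an EpiLC peak. Snrpf, the Sm gene without one, and Snrpa1 of the U2 particle had none in either list.

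Among the SR protein genes, Srsf10 had the strongest EpiLC peak of the 52 genes, at 3.99 (3.06 to 5.10), beside 5.48 (3.80 to 7.67) in Naive. Srsf5 had 3.77 (2.81 to 4.96) in EpiLC and 6.97 (4.89 to 9.66) in Naive. Srsf3, one of the smallest SR proteins, had 2.77 (1.96 to 3.81) in EpiLC and 4.94 (3.27 to 7.21) in Naive, at separate peaks with summits 605 bp apart. Srsf2, which also binds exonic enhancers, had the weakest EpiLC peak, at 2.21 (1.70 to 2.82), beside 4.75 (3.26 to 6.72) in Naive. These were again separate peaks, with summits 733 bp apart, and that Naive peak also lay at an end of Mfsd11. The intervals of these strongest peaks overlapped between the states at Srsf10, Srsf5 and Srsf3 and did not at Srsf2. Srsf2 and Srsf3 each also had a weaker Naive peak that overlapped the EpiLC peak, with folds of 3.79 (2.73 to 5.15) at Srsf2 and 3.72 (2.50 to 5.35) at Srsf3. Against these coinciding peaks the EpiLC and Naive intervals overlapped at both genes. Srsf7 had a peak in Naive alone, at 6.09 (4.34 to 8.33), shared with Gemin6, whose product belongs to the complex that assembles Sm rings. Srsf4, Srsf6, Srsf9, Srsf11 and Srsf12 had none in either list, and Srsf1 is described below.

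Among the hnRNP genes, 5 had end-proximal peaks in both lists. Hnrnph3 had 3.29 (2.27 to 4.62) in EpiLC and 4.58 (2.95 to 6.84) in Naive, at a peak shared with Pbld2. Hnrnpa2b1, which encodes a core hnRNP protein, had 3.15 (2.39 to 4.08) in EpiLC and 5.79 (3.92 to 8.29) in Naive, at a peak that also lay at an end of Cbx3. Hnrnpa0 had 2.50 (1.86 to 3.29) in EpiLC and 4.98 (3.49 to 6.90) in Naive. These 3 genes shared the same order, with EpiLC the lower value, and the intervals were apart at Hnrnpa0. Hnrnpa3 had 2.44 (1.82 to 3.20) in EpiLC and 4.65 (3.12 to 6.69) in Naive, at separate peaks whose summits lay 1271 bp apart. Hnrnpc, a core hnRNP protein that binds uridine runs, had 2.25 (1.65 to 3.01) in EpiLC and 6.88 (4.90 to 9.42) in Naive. Both peaks also lay at an end of Rpgrip1. The ratio of EpiLC over Naive fold at Hnrnpc was the lowest among the 12 genes with both.

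A further 7 hnRNP genes had an end-proximal peak in Naive alone. Hnrnpa1, a core hnRNP gene whose peak also lay at an end of Cbx5, had 6.52 (4.53 to 9.13), and its nearest EpiLC summit lay 53552 bp away. Hnrnpl had 5.99 (4.08 to 8.52), Hnrnpm 5.32 (3.67 to 7.48) at a peak shared with Marchf2, and Hnrnpu 4.996 (3.27 to 7.34). Hnrnpdl, Hnrnpul2 and Hnrnpr had 4.59, 4.03 and 3.65, and the Hnrnpul2 peak was shared with Ttc9c. Hnrnpa1 and Hnrnpa2b1, paralogues whose peaks each reached a Cbx gene of the heterochromatin protein HP1 family, thus differed in that one had an EpiLC peak and the other had none.

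Among the SF3 genes, Sf3b3 had 3.06 (2.36 to 3.90) in EpiLC and 7.19 (5.07 to 9.93) in Naive, at a peak shared with Cog4. Sf3b1, the largest subunit and the one that clasps the branch point, had 4.98 (3.26 to 7.32) in Naive, and Sf3b2 had 4.69 (3.05 to 6.94). Sf3a2 had 4.65, at a peak shared with Plekhj1, and Sf3a1 3.77, at a peak shared with Ccdc157, both in Naive alone. All are subunits of the U2 particle. Sf3b4 was the one gene of the 52 with a peak in EpiLC alone, at 2.52 (1.87 to 3.34), and its nearest Naive summit lay 42943 bp from the gene. Sf3a3, Sf3b5 and Sf3b6 had none in either list.

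**Figure D2:**
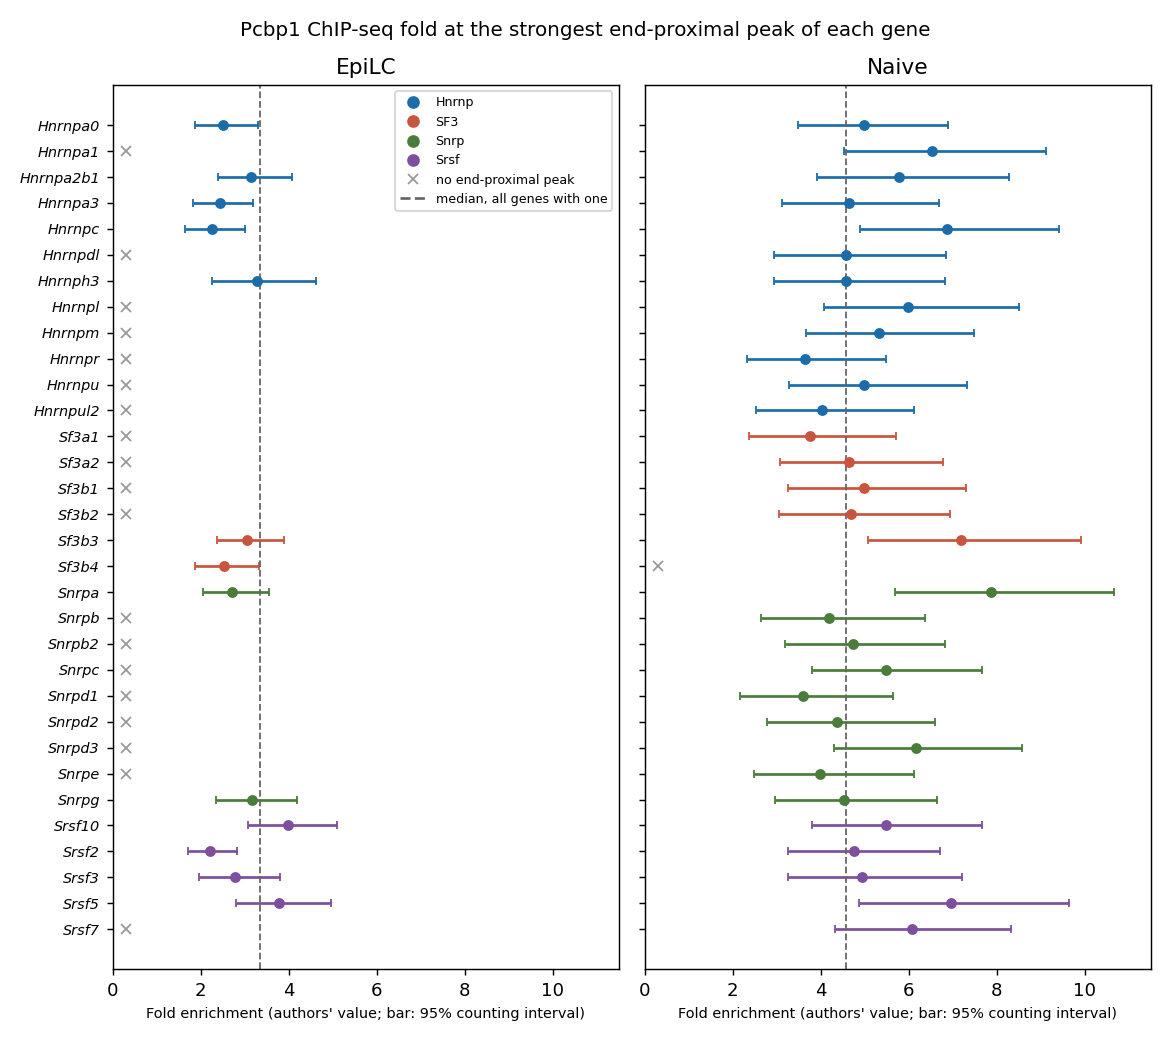
Deposited fold enrichment (x axis) at the strongest end-proximal peak of the 32 genes with one, EpiLC in the left panel and Naive in the right, coloured by family, with 95% counting intervals as bars, crosses for genes with no end-proximal peak and a dashed line at the median of all genes with one. EpiLC values sit between 2.21 and 3.99 and Naive values between 3.60 and 7.88.

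In all 12 genes with a peak in both lists the EpiLC fold was the lower one and the EpiLC pileup the higher one. The median pileup ratio of EpiLC over Naive was 1.62 at these genes and 1.68 over all genes with both. The ratio of EpiLC over Naive fold had a median of 0.532 and ranged from 0.327 at Hnrnpc to 0.727 at Srsf10. Its interval lay below 1 at 9 of the 12 genes, and reached above 1 at Hnrnph3, Snrpg and Srsf10. Only at Hnrnpc (0.207 to 0.523) and Snrpa (0.225 to 0.537) did it also lie below the median ratio over all genes, given below. The strongest peaks of the lists overlapped at 9 of the 12 genes, and at Hnrnpa3, Srsf2 and Srsf3 the ratio compared separate peaks. With the peak closest to a gene end in place of the strongest one, the ratio was 0.582 at Srsf2, 0.746 at Srsf3 and 0.875 at Hnrnph3, and the median was 0.552. Over all 895 genes with both, the median ratio was 0.604 (quartiles 0.478 and 0.776), and 10.1% of them had a ratio above 1. The background under the peaks differed too. The local background behind the fold was a median 2.39 times the lowest of its list at these 12 genes in EpiLC and 1.10 times in Naive, beside 1.85 in EpiLC and 1.13 in Naive over all genes with an end-proximal peak. With pileups divided by the lowest background of each list in place of folds, the median ratio was 0.873, close to the 0.903 over all genes with both. At the 12 genes it ranged from 0.641 at Hnrnpc to 1.11 at Srsf2, with 4 of 12 above 1.

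**Figure D3:**
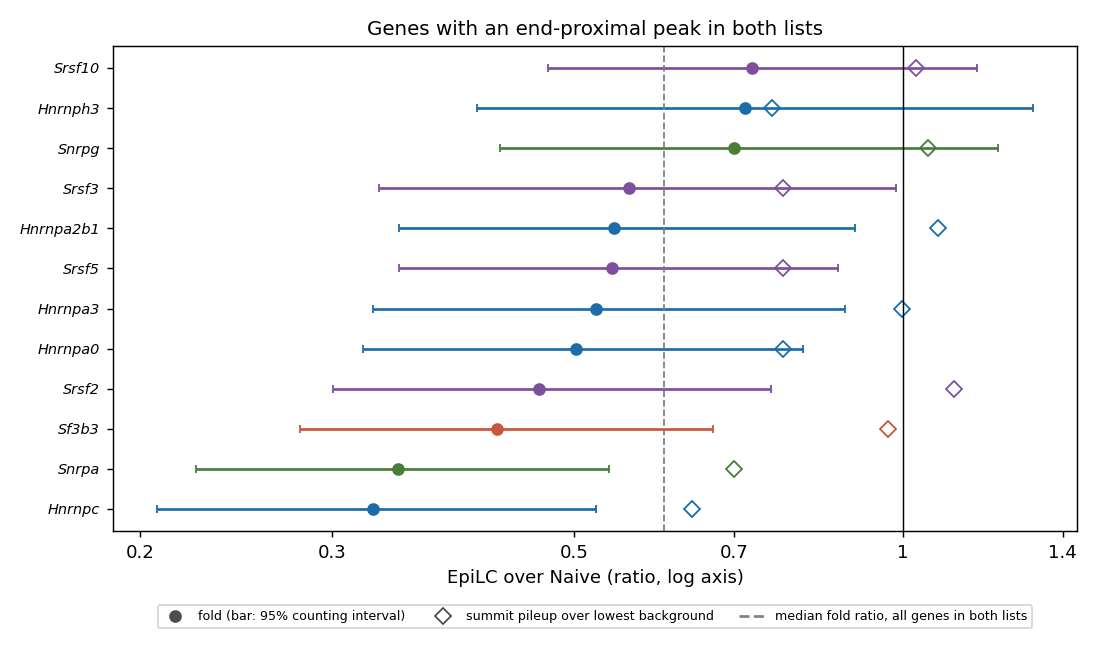
EpiLC over Naive ratio (x axis, log scale) at the 12 genes with an end-proximal peak in both lists: filled points show the fold with a 95% counting interval, open diamonds the summit pileup over the lowest background of its list, the dashed line the median fold ratio of all genes in both lists, and colours the families. Every filled point is under 1, while the diamonds reach from 0.641 to 1.11.

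Most EpiLC peaks at the 52 genes overlapped a Naive peak, and most Naive peaks had no EpiLC partner. Of the 14 EpiLC end-proximal peaks, 12 overlapped a Naive peak (85.7%, against 66.7% of all EpiLC end-proximal peaks), and of the 37 Naive peaks 11 overlapped an EpiLC peak (29.7%, against 18.5%). At Hnrnpa0 both summits were at the same base, at Snrpa they lay 18 bp apart and at Hnrnpc 25 bp. The 2 EpiLC peaks without a Naive partner were those at Hnrnpa3 and Sf3b4. EpiLC peaks at these genes had a median width of 334 bp, against 329.5 bp over all genes with an end-proximal peak. Naive peaks had a median width of 560 bp, against 392 bp, and neither difference was tested. The strongest peak also lay at another protein-coding gene for 5 of 13 genes in EpiLC (38.5%) and for 14 of 31 in Naive (45.2%). Over all genes with an end-proximal peak these shares were 30.9% in EpiLC and 36.2% in Naive.

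All end-proximal peaks with a known strand lay at the start of the gene, 13 of 13 in EpiLC and 34 of 34 in Naive, and none at the 3′ end alone. Over all genes 92.7% of EpiLC and 93.6% of Naive end-proximal peaks lay at the start. Most of the strongest summits lay downstream of the nearest transcript start. In EpiLC the strongest summit was downstream of the nearest start at 8 of 12 genes with a promoter entry, with a median position of 169 bp. Over all 978 genes with an end-proximal peak and an entry, the median was 6.5 bp and 50.5% were downstream. In Naive the strongest summit was downstream at 20 of 28 genes, with a median of 141 bp, against 24 bp and 51.9% over 3502 such genes. From 50 to 300 bp downstream, a stretch set after seeing the data, lay 6 of 12 summits in EpiLC (23.8% of the 978 genes). In Naive 17 of 28 lay there (31.9% of the 3502 genes). The table gives no exons, so whether a summit lay in an exon or an intron was not examined.

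The families had different ranges of position. The Snrp summits in Naive lay from 33 bp before to 252 bp after a transcript start, with a median of 62 bp, and the 2 in EpiLC at 127 and 234 bp. All 5 SF3 summits in Naive lay downstream, from 108 to 428 bp. Hnrnp summits were spread from 672 bp before to 641 bp after a start in EpiLC. In Naive they spread from 1484 bp before to 738 bp after, and 6 of 11 lay downstream, the farthest at Hnrnpa3. The farthest upstream in Naive were at Hnrnpl (1484 bp) and Hnrnpdl (1060 bp), both measured from the nearest start with a promoter entry. From the start of the gene record, the Hnrnpl summit lay 860 bp downstream and the Hnrnpdl summit 346 bp upstream. At Hnrnpa0 the peak of both lists lay 672 bp upstream. The 4 Srsf summits in EpiLC lay 531 bp upstream at Srsf2, 345 bp upstream at Srsf10, and 175 and 176 bp downstream at Srsf5 and Srsf3. In Naive the Srsf summits lay from 505 bp upstream to 232 bp downstream, with 3 of 5 downstream. The spread of the Hnrnp family was thus wider than that of the Snrp family in both lists, with no test over genes.

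**Figure D4:**
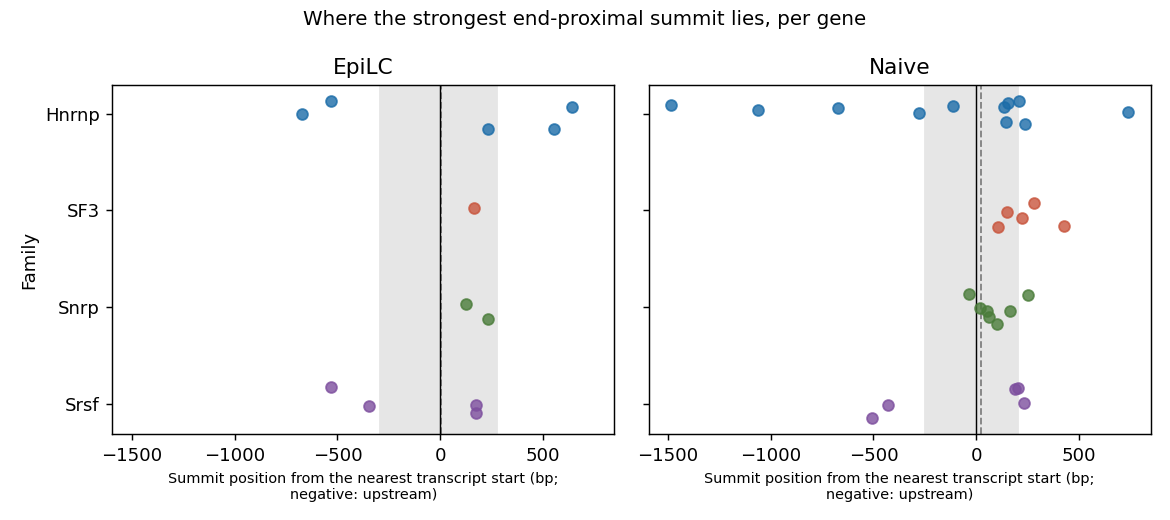
Position of the strongest end-proximal summit from the nearest transcript start (x axis, bp, negative upstream) for each gene with a promoter entry, by family, EpiLC in the left panel and Naive in the right. The grey band spans the quartiles over all genes with an end-proximal peak and a promoter entry, and the dashed line is their median. Snrp summits cluster between 33 bp before and 252 bp after the start while Hnrnp summits scatter.

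Several genes had summits just beyond the 1 kb limit. Nearest inside it were the second EpiLC peak of Srsf10 at 961 bp (3.41) and the Naive peak of Hnrnpa3 at 892 bp (4.65). Nearest outside it was Hnrnpk, at 1001 bp in EpiLC with a fold of 4.003 (3.07 to 5.13) and at 1002 bp in Naive with 6.19 (4.24 to 8.76). Both peaks overlapped the promoter printed above, and the gene record starts upstream of that transcript start. Srsf1, the founding SR protein, had 4.14 (3.22 to 5.25) at 1032 bp in EpiLC and 5.37 (3.76 to 7.44) at 1072 bp in Naive, which is 158 bp downstream of its annotated transcript start in EpiLC and 198 bp in Naive. Hnrnpk and Srsf1 thus had peaks in both lists, and their EpiLC folds were higher than those of all 13 genes inside the limit.

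Further EpiLC summits lay 1089 bp inside Hnrnpab (3.27), 1216 bp inside Hnrnpdl (3.32) and 1276 bp inside Hnrnpd (2.31). The nearest Naive summits to Hnrnpab and Hnrnpd were 13022 and 59112 bp away. Within 3000 bp of a gene end, 18 of the 52 genes had an EpiLC summit (7.53% of all genes) and 35 a Naive summit (23.8%), and the Hnrnp count in EpiLC was 9 of 21. An alternative chosen after seeing Hnrnpk and Srsf1 counted summits within 1 kb of any transcript start with a promoter entry. By this count 16 of 46 genes had an EpiLC summit (5.81% of all genes with an entry) and 32 a Naive summit (20.6%). All 16 of the EpiLC genes were then also among the Naive ones, but Sf3b4, which had no entry, could not be counted. At a −log10 q of at least 5, 7 genes kept an EpiLC peak (4.59% of all genes).

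**Figure D5:**
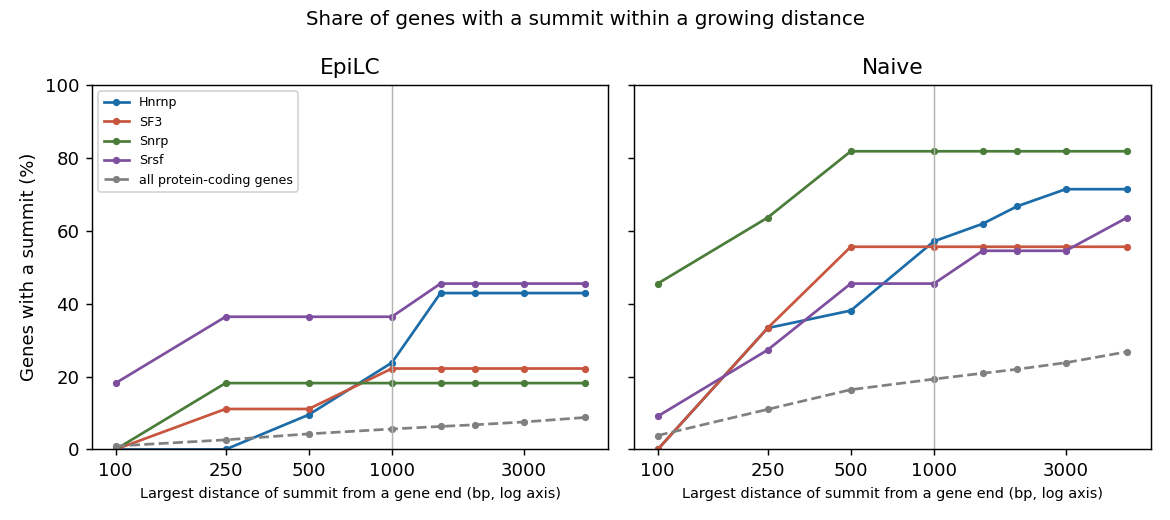
Percentage of genes with a summit within a growing distance of either gene end (x axis, bp, log scale), EpiLC in the left panel and Naive in the right, one line per family and a dashed line for all protein-coding genes, with the 1 kb limit in grey. The Hnrnp line in EpiLC climbs from 5 of 21 genes at 1000 bp to 9 of 21 at 1500 bp, while the Snrp and SF3 lines are flat beyond 1000 bp.

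Of the 20 genes with no end-proximal peak in either list, 9 had no summit within 10 kb of a gene end in either list. These were Hnrnph2, Hnrnpll, Srsf4, Srsf11, Srsf12, Sf3b5, Sf3b6, Snrpf and Hnrnpa1l2-ps2, a gene that the table gives as protein-coding under a pseudogene-like symbol. Sf3a3 had its nearest summits 5882 bp away in EpiLC and 5957 bp in Naive. Hnrnpul1 had its nearest Naive summit 1732 bp away and Srsf6 3182 bp away. A missing peak is not evidence that Pcbp1 was absent.

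Promoters of the genes were richer in G and C than promoters at large, with a median of 61.0% GC against 56.3% over 21263 entries of 17492 protein-coding genes. The Srsf entries had a median of 69.0%, Hnrnp 64.8%, SF3 59.0% and Snrp 56.3%, the last the same as all genes. Genes with a peak in both lists had a median of 64.4%, those in Naive alone 60.3% and those in neither 61.5%. C-rich motifs were searched on both strands. CCCC was in 59 of 60 entries (98.3%, against 88.2% of all), CCCTCCC in 19 (31.7%, against 24.9%) and CCCCNCCCC, which contains CCCC, in 22 (36.7%, against 26.6%). The last was in 13 of 28 Hnrnp and 7 of 14 Srsf entries and in 0 of 10 Snrp entries, the family with the highest share in the full Naive list. These entries came from 19 Hnrnp, 11 Srsf and 9 Snrp genes and are not independent. Hnrnph1, Hnrnpf and Srsf4 were counted repeatedly, and matching entries of Hnrnph1 and of Srsf4 overlap. A match is a description of the letters and does not show binding.

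The other splicing genes were a list of 106 spliceosome and splicing-control genes outside the 4 families. An end-proximal peak was found at 12 of them in EpiLC (11.3%, against 5.61% of all genes) and at 62 in Naive (58.5%, against 19.3%). Their Naive share was close to that of the 52 genes and their EpiLC share was the smaller, 11.3% against 25%. The highest EpiLC folds were at Taf15, which encodes an RNA-binding protein, with 4.14 in EpiLC and 4.19 in Naive, and at Rbm25, with 3.92 in EpiLC and 5.73 in Naive. The highest Naive folds were at Tardbp, the TDP-43 gene, with 10.99 beside 2.56 in EpiLC, and at the helicase genes Ddx23 (3.52 in EpiLC, 8.79 in Naive) and Dhx38 (2.67 in EpiLC, 8.79 in Naive). U2af1, which recognises the 3′ splice site, was the one gene of the list with a peak in EpiLC alone (2.98).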

How the data were processed

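Pcbp1 ChIP-seq was deposited as 1 peak list per cell state, each from a single ChIP library. Per the submitters' processing notes the tools were MACS2, Bowtie2, fastp and Picard, and the build was GRCm38 (mm10). Versions, parameters, read totals and the caller's control, not given in the sources used here, could not be checked. The fold enrichment at the summit is a ratio deposited by the authors, as are the −log10 p-value and −log10 q-value of each peak. Both lists ended at a −log10 q of 2.02. The deposited score column was not used.

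Summits were placed at the peak start plus the deposited offset and compared with gene ends of a RefSeq table of GRCm38.p6. Where several peaks lay at a gene, that of highest fold was used. Pileup and background were solved from fold and p-value, with a whole-number pileup matching the deposited −log10 p within 0.001 for 100% of peaks in each list. Ratio intervals are exact binomial intervals of the 2 pileups. The code was tested on simulated data. Python 3.11.15 with numpy 2.4.6, pandas 2.3.3, scipy 1.17.1 and matplotlib 3.10.9 was used.

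The genes, lists and alternatives were chosen with earlier results of these data known, and no set test was run. Values are given for all genes with peaks in both lists or in EpiLC alone, for the 10 highest in Naive alone, and for the top 3 of the other splicing genes in each list and in both (by the lower fold), apart from a gene not reported here. Values of further genes were chosen after they were seen.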

Additional observations from a re-analysis of the deposited data

How the results depend on the processing

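No paired analysis was possible because each group had 1 library. Shares in parentheses are of all protein-coding genes. With a window of 500 bp the EpiLC (4.27%) counts were 2 Hnrnp and 1 SF3 genes, and with 3000 bp (7.53%) 9 Hnrnp genes, with 3 genes in EpiLC alone (2.07%). At a −log10 q of at least 5, EpiLC (4.59%) held 7 genes, 2 Hnrnp, 1 SF3 and 2 Srsf among them, of which 7 were in both lists (3.2%) and 0 in EpiLC alone (1.39%). At a fold of at least 5, EpiLC (0.676%) held 0 genes in every family, with 0 in both lists (0.402%) and 0 in EpiLC alone (0.274%), and Naive (6.83%) held 5 Hnrnp, 1 SF3, 3 Snrp and 3 Srsf genes, all 12 in Naive alone (6.42%). With the Naive list shortened to the length of the EpiLC list, Naive (5.44%) held 13 genes, as 6 Hnrnp, 1 SF3, 3 Snrp and 3 Srsf, with 7 in both (2.4%), 6 in EpiLC alone (3.21%) and 6 in Naive alone (3.04%). With gene starts alone (EpiLC 4.18%), or transcript starts alone (EpiLC 5.81% of genes with an entry), EpiLC held 1 SF3 gene. Then 0 genes were in EpiLC alone (1.04% with gene starts, 1.47% with transcript starts). Both settings leave out genes without a promoter entry. Sf3b4 has none, so its loss was fixed in advance and says nothing of its peak. The gene-start shares are of all 21887 genes, of which 17492 had an entry. With transcript starts EpiLC held 8 Hnrnp genes. Counting any base of a peak gave 2 genes in EpiLC alone (1.57%). With peaks at 1 gene only, EpiLC (3.88%) held 8 genes, 2 Hnrnp, 1 SF3 and 1 Snrp among them, and Naive (12.5%) held 18, 6 Hnrnp and 2 SF3 among them, with 7 in both (2.58%) and 11 in Naive alone (9.95%). The stricter thresholds and the single-gene peaks leave fewer peaks by construction. Shares of overlapping peaks stayed within their exact binomial intervals when a 50% overlap or close summits were asked for. The median fold ratio depended on the measure. It was 0.532 with the strongest peaks and 0.552 with the peaks closest to a gene end. With pileups over the lowest background it was 0.873, with 4 of 12 genes above 1, beside a median of 0.903 over all genes with both. Depth, known only from the pileups, limits the lists: a weak peak can be missing from either.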

Other observations

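Some of these genes held peaks inside the gene body, away from both ends. Hnrnpr had its highest peak there: a Naive peak of 9.87 (7.46 to 12.8) lay 6881 bp downstream of the gene start and 6225 bp from the nearest annotated transcript start (chromosome 4, 136317636 to 136318057), above the 3.65 at its gene end and above the end-proximal folds of all 52 genes. No EpiLC peak lay within the body of Hnrnpr or at its ends. Hnrnpf, a quasi-RRM protein that binds G runs and had no end-proximal peak, held a pair of internal peaks in each list. The first had folds of 3.16 in EpiLC and 4.49 in Naive, with summits 407 bp (EpiLC) and 436 bp (Naive) downstream of an internal transcript start. The second had 3.60 in EpiLC and 4.41 in Naive, 229 bp (EpiLC) and 210 bp (Naive) downstream of another. Its paralogue Hnrnph1 had a Naive peak of 5.19 (3.43 to 7.56), 274 bp from an internal transcript start, and no EpiLC peak in its body. These genes were picked after their values were seen.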
